A study of Mus musculus with 16 samples.

Results

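The 44 collagen chain genes of the brachiocephalic artery were described here. They were every gene of the count table whose symbol reads Col, a number, the letter a and a number. This rule used names and no measured values, but it was set with earlier results of these data known. The chains made up 44 of the 55356 genes in the table, and 29 of them passed the filter on low counts, as did 10634 genes in all. By the known build of the proteins there were 11 fibrillar chains, 9 chains of basement membranes and the zone beneath them, 8 beaded filament chains (type VI collagen and its relatives), 9 fibril-associated chains, 3 chains of short-chain networks and 4 transmembrane chains.

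RNA came from 16 female mice in 4 groups of 4: Apoe-/-Mif-/- mice after 42 weeks of Western-type diet, Apoe-/- mice after 42 weeks, Apoe-/-Mif-/- mice after 24 weeks and Apoe-/- mice after 24 weeks. All of them lacked Apoe, whose protein clears lipoproteins from blood, and the comparison genotype was therefore not a healthy artery. The Apoe-/-Mif-/- mice also lacked Mif, a cytokine with chemokine-like activity, in every cell. The diet held 0.2% cholesterol and 21.2% fat and was started at 6 weeks of age, which makes the mice 30 and 48 weeks old at the end. The series asks how loss of Mif and a longer time on diet, which here is also a higher age, act on the plaque-bearing artery. For each mouse, 3 to 4 scraped frozen sections of 5 µm were pooled, 1 ng of RNA was amplified by the Smart-seq2 method, and pairs of 100 bp were read. The sections held the whole vessel, so in all that follows fewer cells of a type and less RNA per cell cannot be told apart.

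Collagens are the main structural proteins of the artery wall and of the fibrous cap over a plaque. Chains of the fibrillar types I, III and V assemble into tension-bearing fibrils, made mostly by smooth muscle cells and fibroblasts. Type IV chains form the sheet-like network of basement membranes around smooth muscle cells and under the endothelium, and type VI chains form fine filaments that link cells to the fibrils. A chain is hydroxylated and folded with its partners in the endoplasmic reticulum, secreted, trimmed by propeptidases and crosslinked by lysyl oxidases.

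Promoters are shown for 3 abundant chains: Col1a2, a partner of Col1a1 in type I collagen, and Col4a1 and Col4a2, partners in type IV collagen whose genes lie head to head on chromosome 8. The windows come from RefSeq (build GRCm38.p6), run from 250 bases before to 50 bases after the start, and are printed 5′ to 3′ on the gene's strand. They lie at chr6:4505368-4505667 on the plus strand for Col1a2, at chr8:11312777-11313076 on the minus strand for Col4a1 and at chr8:11312555-11312854 on the plus strand for Col4a2. Capitals mark matches to CCAAT or GGGCGG (a GC box) on either strand, so that ATTGG and CCGCCC are matches on the other strand. No window of the 3 held TATAAA.
Col1a2: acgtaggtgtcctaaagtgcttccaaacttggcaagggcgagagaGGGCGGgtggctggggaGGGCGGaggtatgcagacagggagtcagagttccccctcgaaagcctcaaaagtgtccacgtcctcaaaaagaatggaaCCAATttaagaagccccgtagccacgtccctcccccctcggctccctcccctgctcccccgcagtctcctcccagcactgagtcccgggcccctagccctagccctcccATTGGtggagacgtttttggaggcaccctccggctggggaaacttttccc
Col4a1: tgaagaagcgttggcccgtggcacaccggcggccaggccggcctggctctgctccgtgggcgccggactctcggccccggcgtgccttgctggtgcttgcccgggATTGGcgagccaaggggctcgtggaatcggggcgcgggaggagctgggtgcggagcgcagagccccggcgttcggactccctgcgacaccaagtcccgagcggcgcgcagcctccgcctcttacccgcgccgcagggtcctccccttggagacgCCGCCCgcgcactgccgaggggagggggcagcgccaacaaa
Col4a2: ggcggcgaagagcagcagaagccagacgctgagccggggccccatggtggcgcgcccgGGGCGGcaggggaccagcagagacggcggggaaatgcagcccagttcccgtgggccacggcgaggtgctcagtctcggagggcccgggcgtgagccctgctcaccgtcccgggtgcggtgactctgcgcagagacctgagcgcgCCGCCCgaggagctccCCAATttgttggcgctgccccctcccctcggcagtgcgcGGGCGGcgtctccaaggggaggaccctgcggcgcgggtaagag
The Col4a1 and Col4a2 windows overlap by 78 bases, in which 1 is the reverse complement of the other. Of the 44 genes, 35 had at least 1 such window, 38 windows in all. GGGCGG was found in 60.5% of these 38 windows, against 35.7% of all 32851 windows in the table. CCAAT was found in 34.2% of collagen windows, against 37.4% of all windows, and TATAAA in 13.2% against 13.6%. Both strands were searched, no match overlapped another in the printed windows, and a match describes letters, not binding.

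Sequencing depth ran from 378066 to 8649518 counts per library, and Apoe-/- library 1 at 42 weeks was the shallowest. Mif stood at 2.39 to 19.9 CPM (counts scaled to a common library size) in the 8 Apoe-/-Mif-/- libraries and at 23.2 to 301 CPM in the 8 Apoe-/- libraries, with no overlap. The value of 23.2 CPM, close to the Apoe-/-Mif-/- range, came from that shallowest library, and the next lowest Apoe-/- value was 105 CPM. Markers of smooth muscle summed to at least 891 CPM, of fibroblasts to at least 2955 CPM and of macrophages to at least 2221 CPM in every library. In 3 libraries, tissue from outside the vessel wall stood out: summed white adipocyte markers exceeded 20000 CPM in Apoe-/-Mif-/- library 2 at 42 weeks and Apoe-/- library 1 at 24 weeks, and thymocyte markers reached 3881 CPM in Apoe-/- library 4 at 24 weeks. Mitochondrial genes took 0.751% to 10.2% of counts. The names of the 4 Apoe-/-Mif-/- libraries at 24 weeks carry the letter C and those of all others the letter B. The labels do not say what the letter stands for, and for those 4 it cannot be told apart from the group.

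Collagens took a small and uneven share of the transcripts. They held 0.461% to 3.06% of all counts in a library. The 3 lowest shares, 0.461%, 0.469% and 0.656%, belonged to the 3 libraries named above, and the other 13 ran from 1.40% to 3.06%. The limits on the markers were set after these values were seen. White adipocyte markers were also plentiful in Apoe-/-Mif-/- library 1 and Apoe-/- library 3 at 42 weeks, at 13754 and 13432 CPM, with collagen shares of 2.14% and 1.44%. The part of that tissue in the shares was not tested. By group the share averaged 1.88% ± 0.980 in Apoe-/-Mif-/- mice at 42 weeks, 1.69% ± 0.495 in Apoe-/- mice at 42 weeks, 2.46% ± 0.526 in Apoe-/-Mif-/- mice at 24 weeks and 1.56% ± 1.16 in Apoe-/- mice at 24 weeks (SD, n = 4 each). Without the 3 libraries the means were 2.36%, 1.69%, 2.46% and 2.57% in the same order (n = 3, 4, 4 and 2). The ranges of the groups overlapped with all libraries in.

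Per kilobase of the longest annotated transcript, type I and III chains led. Col1a1 averaged 1087 CPM per kb over the 16 libraries, Col1a2 610 and Col3a1, the chain of type III fibrils, 558. The type VI chains Col6a2 and Col6a1 followed at 251 and 186 CPM per kb. Next came the basement membrane chains Col18a1, whose C-terminal fragment is endostatin, at 153, Col4a2 at 117 and Col4a1 at 106. The type V chains Col5a2 and Col5a1, which regulate fibril diameter, averaged 76.0 and 52.6 CPM per kb, and Col6a3 averaged 52.0. Each of these chains differed from the next by less than its own SD over the libraries, which was 631 for Col1a1, 467 for Col1a2 and 359 CPM per kb for Col3a1. Together Col1a1, Col1a2 and Col3a1 took 45.8% to 76.9% of the collagen counts of a library.

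**Figure D1:**
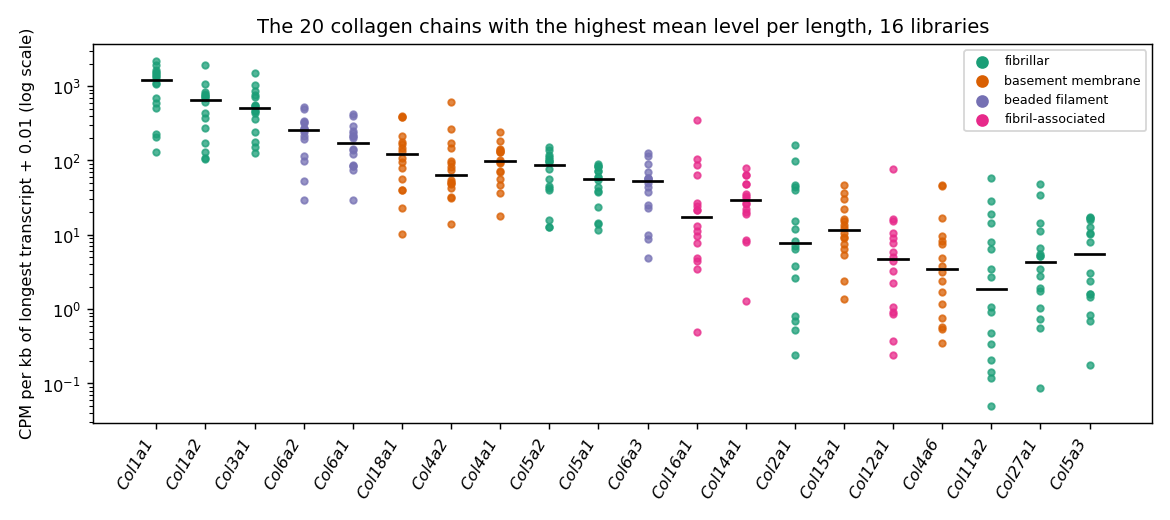
Level of the 20 collagen chains with the highest mean, in CPM per kb of the longest transcript plus 0.01 on a log axis, with 1 point for each of 16 libraries, a black line at the median and colours for the class. Col1a1, Col1a2 and Col3a1 lead with means of 1087, 610 and 558 CPM per kb, and the rarer chains spread over several orders of magnitude between libraries.

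The rarer chains were carried by few libraries. Of the 29 chains that passed the filter, 22 had counts in all 16 libraries, and the highest library held 10.5% to 55.5% of a chain's summed CPM, with a median of 29.2%. None of the 15 others had counts in all libraries, and their highest library held 34.1% to 100%. Col9a2 and Col28a1 had counts in 1 library each. Besides these, the untested chains were Col11a1, Col24a1, Col4a3, Col6a4, Col6a5, Col26a1, Col8a2, Col9a1, Col9a3, Col19a1, Col20a1, Col13a1 and Col17a1, with means of 0.0211 to 4.84 CPM over the 15. The tested ones were 9 of 11 fibrillar, 8 of 9 basement membrane, 4 of 8 beaded filament, 4 of 9 fibril-associated, 2 of 3 short-chain and 2 of 4 transmembrane chains. Library 4 of the Apoe-/- mice at 42 weeks was the highest of the 16 for 9 of the 44 chains, Apoe-/-Mif-/- library 1 at 42 weeks for 7, and library 4 of the same group and Apoe-/- library 2 at 24 weeks for 6 each.

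Within the collagen pool, basement membrane chains held their largest shares in Apoe-/- mice at 42 weeks. They took 11.8%, 15.3%, 9.75% and 10.9% of collagen counts in Apoe-/-Mif-/- libraries 1 to 4 at 42 weeks, against 23.4%, 20.6%, 15.9% and 17.6% in Apoe-/- libraries 1 to 4 at 42 weeks. At 24 weeks they took 8.81%, 8.65%, 14.0% and 15.5% in Apoe-/-Mif-/- libraries, against 14.0%, 8.51%, 5.67% and 14.0% in Apoe-/- libraries. In this share every Apoe-/- library at 42 weeks thus lay above every library of the other 3 groups, with nearest values of 15.9% and 15.5%. Summed CPM of the class did overlap, at 2159 to 5635 in Apoe-/- mice at 42 weeks. It was 951 to 3715 and 1308 to 3682 CPM in Apoe-/-Mif-/- mice at 42 and 24 weeks, and 719 to 1889 CPM in Apoe-/- mice at 24 weeks. Different chains led in Apoe-/- mice at 42 weeks: Col18a1 with 7332 counts in library 2 and Col4a2 with 5700 in library 4. Means were 11.95% ± 2.41 in Apoe-/-Mif-/- and 19.4% ± 3.32 in Apoe-/- mice at 42 weeks, and 11.7% ± 3.52 in Apoe-/-Mif-/- and 10.5% ± 4.15 in Apoe-/- mice at 24 weeks (SD, n = 4 each).

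Beaded filament chains, nearly all of type VI, took 3.05%, 5.10%, 11.1% and 11.5% of collagen counts in Apoe-/-Mif-/- libraries 1 to 4 at 42 weeks, against 24.7%, 19.2%, 14.5% and 13.2% in Apoe-/- libraries at 42 weeks. The shares of the genotypes did not overlap at 42 weeks. At 24 weeks they did, with 13.4% ± 3.48 in Apoe-/-Mif-/- and 16.9% ± 4.44 in Apoe-/- mice (SD, n = 4 each). Summed CPM of the beaded filament chains overlapped at 42 weeks, at 316 to 3705 in Apoe-/-Mif-/- and 1971 to 4214 in Apoe-/- mice. Fibrillar chains took 65.4% to 84.0% in Apoe-/-Mif-/- mice at 42 weeks and 50.3% to 65.8% in Apoe-/- mice at 42 weeks, a near separation. The 65.4% came from the fat-rich library 2, without which the range was 75.2% to 84.0%. In summed CPM the fibrillar chains overlapped, at 4053 to 26476 in Apoe-/-Mif-/- and 5602 to 19190 in Apoe-/- mice at 42 weeks. At 24 weeks the fibrillar share averaged 72.4% ± 5.89 in Apoe-/-Mif-/- and 69.8% ± 8.48 in Apoe-/- mice. Without the 3 libraries rich in fat or thymus markers, basement membrane shares ran from 9.75% to 11.8%, 15.9% to 23.4%, 8.65% to 15.5% and 5.67% to 8.51% in the 4 groups in the order above. These shares are parts of 1 sum, so a higher share of 1 class means a lower share of others, and they are given as a description with no test.

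**Figure D2:**
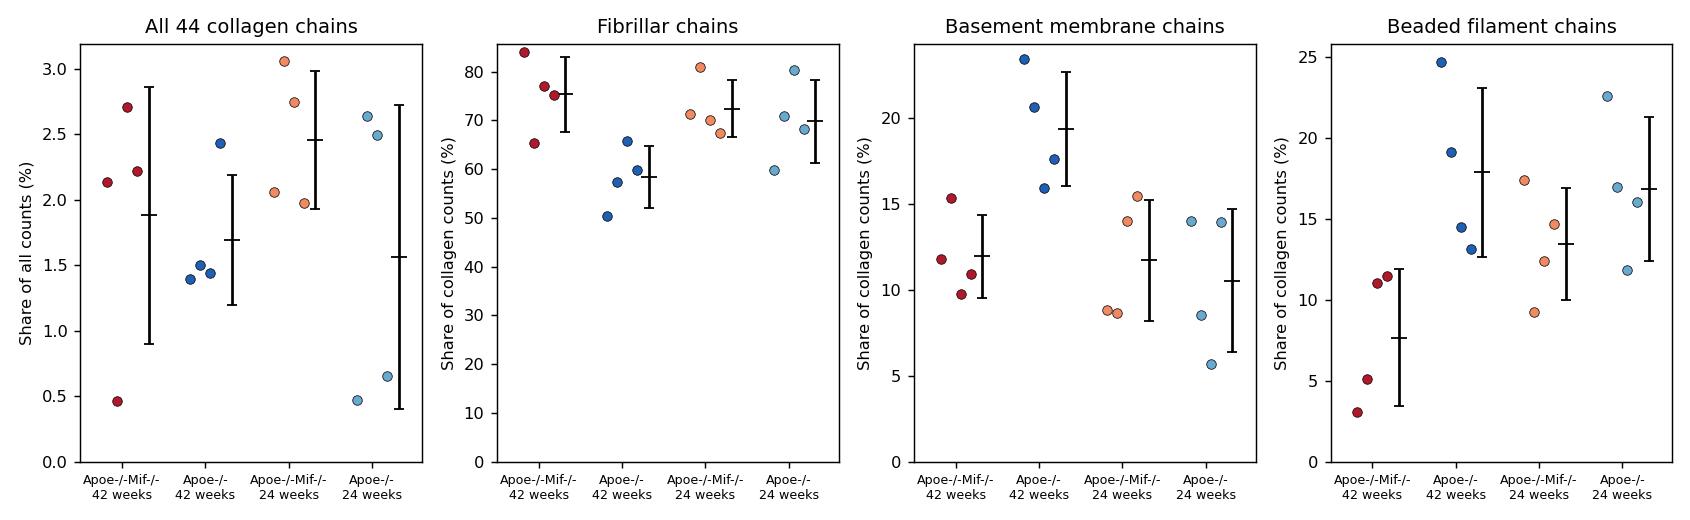
Share of all counts held by the 44 collagen chains, and shares of collagen counts held by the fibrillar, basement membrane and beaded filament chains, in percent, with 1 point per mouse and the mean ± SD beside the 4 points of each group. The basement membrane share is 15.9% to 23.4% in Apoe-/- mice at 42 weeks, above all 12 other libraries.

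In the counts, partner chains of 1 protein did not keep a fixed ratio across the libraries. The part of sampling and amplification in these ratios was not tested. Counts of Col1a1 over those of Col1a2 ran from 1.23 to 4.35 across the 16 libraries, with an SD of 0.541 on the log2 scale. Col4a1 over Col4a2, whose promoters overlap in the sequences above, ran from 0.154 to 9.99, with an SD of 1.24. The lowest ratio was in Apoe-/- library 4 at 42 weeks and the highest in Apoe-/-Mif-/- library 1 at 42 weeks. Col6a1 over Col6a2 ran from 0.133 to 1.35 and Col6a3 over Col6a2 from 0.138 to 0.998. For the X-linked head-to-head pair Col4a6 and Col4a5, the ratio of Col4a6 to Col4a5 ran from 0.0533 to 26.7 over the 15 libraries with at least 20 counts of the pair together. Across the 16 libraries the CPM of Col1a1 and Col1a2 ranked most alike of all pairs of tested chains, with Spearman's rho of 0.935, followed by Col2a1 and Col11a2 with 0.824. These rhos are descriptions over libraries that share depth and tissue make-up.

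Mif deletion at 24 weeks went with higher fitted levels of most collagen chains, but none passed the test. By edgeR's quasi-likelihood test 0 of 29 chains were called at an adjusted p under 0.05, as were 5 of all 10634 genes (0.047%). At an unadjusted p under 0.05 there was 1 chain, 3.45% of the 29, against 7.33% of all genes. DESeq2 called 1 chain, Col4a4, and 2.27% of all genes with an adjusted p. The fold change was above 0 for 23 chains and below 0 for 6, against 45.1% of all genes above 0. The median log2 fold change was 0.61 over the chains and -0.18 over all genes. It ran from 0.37 to 1.08 as each library was left out, and was 0.15, against 0 over all genes, without the 3 libraries rich in fat or thymus markers. Markers of fat and skeletal muscle differed in the other direction. Below 0 were 9 of 9 tested white adipocyte markers, 2 of them called, and 7 of 7 fast skeletal muscle markers, 3 of them called. These were all 5 genes called in this comparison. Above 0 were 7 of 9 smooth muscle markers (median 0.62) and 9 of 10 macrophage markers (0.88). The same held for 5 of 10 fibroblast markers (median -0.20) and 3 of 9 endothelial markers (-0.60). The part of these cells in the chains' values was not tested. White adipocyte markers summed to 104 to 970 CPM in Apoe-/-Mif-/- mice and 137 to 22710 CPM in Apoe-/- mice at 24 weeks. Skeletal muscle markers summed to 10.05 to 64.8 CPM in Apoe-/-Mif-/- mice and to 5266, 10.97, 28.9 and 3025 CPM in Apoe-/- libraries 1 to 4, so that the high values came from the same libraries 1 and 4.

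Col1a1 had 4044, 11521, 8464 and 8963 CPM in Apoe-/-Mif-/- mice at 24 weeks, against 1350, 6523, 7696 and 774 CPM in Apoe-/- mice at 24 weeks. The 2 low Apoe-/- values came from libraries 1 and 4, which carried the fat and thymus markers, and the groups overlapped (log2 fold change 1.01, SE 0.58, adjusted p = 0.783). Col1a2, in the same protein, had 2023, 4485, 4092 and 3293 CPM in Apoe-/-Mif-/- mice and 566, 3649, 3814 and 570 CPM in Apoe-/- mice at 24 weeks. It showed the same 2 low libraries. Col3a1 had 3069, 4261, 3052 and 2574 CPM in Apoe-/-Mif-/- mice, against 850, 3980, 5734 and 1997 CPM in Apoe-/- mice, with a log2 fold change of 0.04 (SE 0.60), which was -0.60 without the 3 libraries rich in fat or thymus markers. Col5a2 overlapped as well, with 268 to 744 CPM in Apoe-/-Mif-/- mice and 84.3 to 1006 CPM in Apoe-/- mice.

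Among basement membrane chains, Col18a1 had 526, 813, 1178 and 2139 CPM in Apoe-/-Mif-/- mice at 24 weeks, against 58.1, 928, 446 and 228 CPM in Apoe-/- mice. The ranges overlapped in 1 Apoe-/- library (log2 fold change 1.49, SE 0.81, adjusted p = 0.754). Col4a2 had 322, 525, 1109 and 336 CPM in Apoe-/-Mif-/- mice and 206, 314, 271 and 203 CPM in Apoe-/- mice. Its genotypes did not overlap at 24 weeks, as held for 1 of 29 chains (3.45%) and for 3.84% of all genes (1.55% in the same direction), but the nearest values were 322 and 314 CPM (log2 fold change 1.21, SE 0.76, adjusted p = 0.830). Col4a1 had 310, 917, 941 and 865 CPM in Apoe-/-Mif-/- mice, against 373, 471, 469 and 118 CPM in Apoe-/- mice, and 3 Apoe-/-Mif-/- libraries lay above all 4 Apoe-/- libraries. The smallest p of the family belonged to Col4a4, described with the interaction below.

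At 42 weeks, loss of Mif again went with no called chain. EdgeR called 0 of 29 chains, and 0 of 10634 genes (0%). At an unadjusted p under 0.05 there were 3 chains, 10.3% of the 29, against 17.3% of all genes. The fold change was above 0 for 17 chains and below 0 for 12, against 51.8% of all genes above 0, and no chain separated the genotypes, against 2.2% of all genes. The median log2 fold change was 0.27 over the chains and 0.09 over all genes. This order turned round with size factors in place of TMM scaling, with 0.20 over the chains and 0.28 over all genes. Without Apoe-/-Mif-/- library 3 or without library 4 of that group the chains' median was -0.21 or -0.16, and that of all genes -0.21 or -0.15.

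By class, 8 of 9 fibrillar chains had a fold change above 0 at 42 weeks, with a median of 0.65, while the 4 beaded filament chains were split, 2 above and 2 below 0, with a median of -0.32. Col1a1 had 12824, 1219, 8119 and 9651 CPM in Apoe-/-Mif-/- mice at 42 weeks, against 3052, 6308, 3482 and 9143 CPM in Apoe-/- mice. The 1 low Apoe-/-Mif-/- value came from the fat-rich library 2. Col1a2 had 10442, 929, 3888 and 4185 CPM in Apoe-/-Mif-/- mice and 702, 1457, 2360 and 5702 CPM in Apoe-/- mice (log2 fold change 0.93, SE 0.65, adjusted p = 0.459). Col3a1 had 984, 691, 4734 and 8332 CPM in Apoe-/-Mif-/- mice, against 1345, 2601, 2401 and 3048 CPM in Apoe-/- mice, so that Apoe-/-Mif-/- mice held both the lowest and the highest values.

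Col6a2 had 568, 145, 1050 and 1592 CPM in Apoe-/-Mif-/- mice at 42 weeks, against 1661, 2396, 962 and 2591 CPM in Apoe-/- mice. All but 1 of the Apoe-/- libraries lay above all Apoe-/-Mif-/- libraries (log2 fold change -1.18, SE 0.65, adjusted p = 0.345). Col6a3, the largest chain of type VI collagen, had 89.4, 48.7, 596 and 386 CPM in Apoe-/-Mif-/- mice and 230, 1150, 502 and 1272 CPM in Apoe-/- mice (log2 fold change -1.49, SE 0.80, adjusted p = 0.326). Col6a1, their partner, gave 302, 121, 880 and 1726 CPM in Apoe-/-Mif-/- mice and 864, 355, 506 and 344 CPM in Apoe-/- mice. Its log2 fold change had the other sign, 0.55 (SE 0.71), but was -0.27 without Apoe-/-Mif-/- library 4.

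The 3 smallest p values at 42 weeks belonged to Col11a2 and Col2a1, best known from cartilage, and Col4a4. Col4a4 came second (log2 fold change -6.30, SE 2.15, adjusted p = 0.176) and is described with the interaction below. Col11a2, a chain of type XI collagen, had 352, 114, 0.239 and 172 CPM in Apoe-/-Mif-/- mice, against 6.32, 1.18, 5.46 and 2.79 CPM in Apoe-/- mice. All but Apoe-/-Mif-/- library 3 lay above the Apoe-/- range (log2 fold change 5.38, SE 1.72, adjusted p = 0.176). Col2a1, the chain of type II collagen, had 836, 78.0, 1.20 and 240 CPM in Apoe-/-Mif-/- mice and 61.1, 4.14, 19.5 and 13.3 CPM in Apoe-/- mice. The same library 3 was low (log2 fold change 3.59, SE 1.42, adjusted p = 0.206), and without Apoe-/-Mif-/- library 1 the log2 fold change was 2.33 (adjusted p = 0.411). DESeq2 called Col11a2 (log2 fold change 5.76, adjusted p = 0.00306) and Col4a4, where it called 9.94% of all genes with an adjusted p.

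Markers of other cells and the mitochondrial share stood beside these chains as follows. Mitochondrial genes took 6.01%, 7.30%, 1.94% and 8.64% of counts in Apoe-/-Mif-/- libraries 1 to 4 at 42 weeks, against 2.98%, 1.57%, 1.74% and 3.55% in Apoe-/- libraries, so the same library 3 was low and the other 3 lay above the Apoe-/- range. Fast skeletal muscle markers had a fold change above 0 for 7 of 7 tested, 3 of them with an unadjusted p under 0.05. Also above 0 were 8 of 10 fibroblast markers (median 0.43), 6 of 9 smooth muscle (0.28), 6 of 9 white adipocyte (1.61) and 5 of 6 brown adipocyte markers (2.96). Only 3 of 9 endothelial markers (median -0.70) and 3 of 10 macrophage markers (-0.71) were. The 9 chondrocyte markers summed to 192 to 6836 CPM in Apoe-/-Mif-/- mice and to 271 to 2431 CPM in Apoe-/- mice at 42 weeks. Of the 4 tested, 3 were above 0, and 1 had an unadjusted p under 0.05: Acan (log2 fold change 3.04, SE 1.29, adjusted p = 0.229), which was 0.82 without Apoe-/-Mif-/- library 1. In Apoe-/-Mif-/- library 1, which had the most Col2a1 and Col11a2, Comp stood at 3583 CPM, Chad at 2695 CPM and Acan at 554 CPM, the highest of the 16 libraries for each. Among the 8 libraries at 42 weeks, Matn1 and Snorc were at 0 in all, Cnmd and Hapln1 in 7, Matn3 in 5 and Sox9 in 3, and none of these 6 exceeded 9.10 CPM. The part of these in the Col2a1 and Col11a2 values was not tested.

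**Figure D3:**
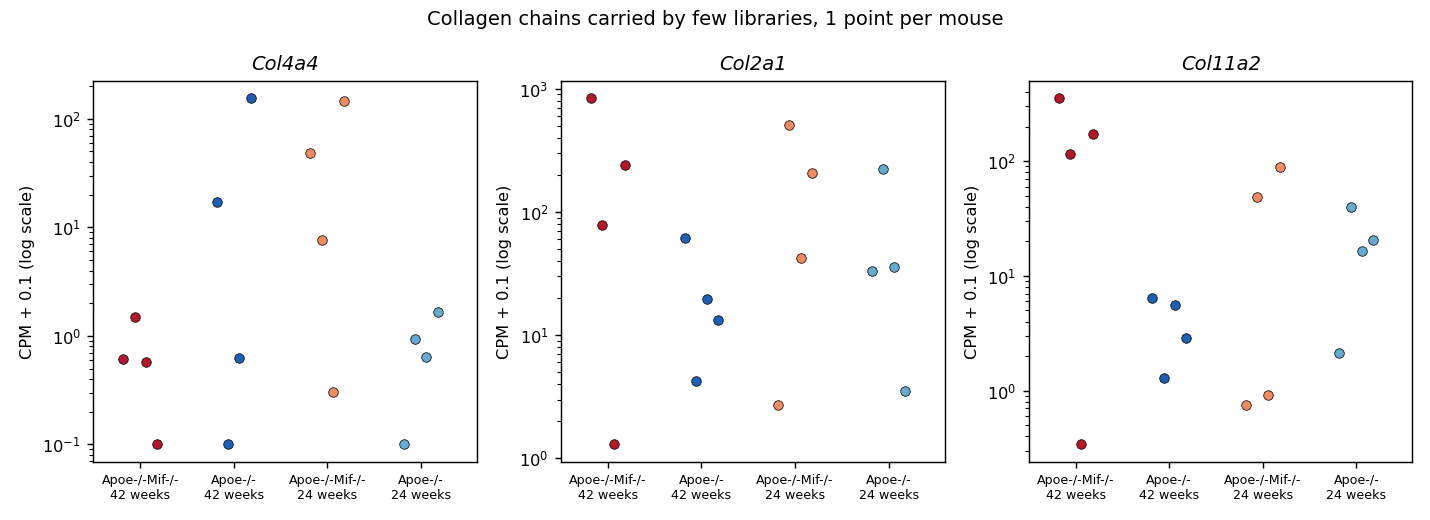
CPM plus 0.1 on a log axis for Col4a4, Col2a1 and Col11a2, with 1 point per mouse in the 4 groups. Col4a4 is over 10 CPM in 4 libraries, and Col11a2 is over 100 CPM in 3 libraries, all of them from Apoe-/-Mif-/- mice at 42 weeks.

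In Apoe-/- mice, both main type IV chains were higher in each mouse at 42 weeks than in any mouse at 24 weeks, though neither passed the test. EdgeR called 0 of 29 chains and 0 of 10634 genes (0%) between 42 and 24 weeks. At an unadjusted p under 0.05 there were 3 chains, 10.3%, against 12.2% of all genes. The fold change was above 0 for 20 chains and below 0 for 9, against 47.3% of all genes above 0. The median log2 fold change was 0.87 over the chains and -0.12 over all genes, and size factors gave 1.13 and 0.16. The chains' median ran from 0.05, without Apoe-/- library 4 at 42 weeks, to 1.22 as each library was left out. With only the groups compared in the fit it was 0.43, against 0.00 over all genes. Without the 3 libraries rich in fat or thymus markers, 2 of which are Apoe-/- mice at 24 weeks, the medians were 0.22 and 0.11. Of the 8 basement membrane chains 7 had a fold change above 0, with a median of 1.28.

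Col4a2 had 942, 640, 477 and 3976 CPM in Apoe-/- mice at 42 weeks, against 206, 314, 271 and 203 CPM in Apoe-/- mice at 24 weeks. The groups did not overlap, and library 4 at 42 weeks was the highest by far (log2 fold change 2.60, SE 0.80, adjusted p = 0.322). Without that library the log2 fold change was 1.45 (adjusted p = 0.469). Col4a1 had 870, 1208, 623 and 611 CPM at 42 weeks and 373, 471, 469 and 118 CPM at 24 weeks. It did not overlap either (log2 fold change 1.21, SE 0.68, adjusted p = 0.485). These were 2 of 29 chains (6.9%), against 4.16% of all genes whose groups did not overlap in this comparison and 1.06% that did so upward. Col18a1 had 312, 2166, 978 and 748 CPM at 42 weeks, against 58.1, 928, 446 and 228 CPM at 24 weeks, and overlapped (log2 fold change 1.34, SE 0.81, adjusted p = 0.521).

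Col16a1, a fibril-associated chain, had 25.3, 139, 23.4 and 1815 CPM in Apoe-/- mice at 42 weeks, against 2.53, 50.1, 126 and 17.8 CPM in Apoe-/- mice at 24 weeks. The difference rested on library 4 at 42 weeks: the log2 fold change was 3.35 (SE 1.21, adjusted p = 0.322) with it and 0.42 (adjusted p = 0.926) without it. The type I and III chains overlapped widely, with log2 fold changes of 0.43 for Col1a1, 0.25 for Col1a2 and -0.42 for Col3a1. Without the 3 libraries rich in fat or thymus markers the first of these was -0.39 and that of Col1a2 -0.57, and size factors gave 0.10 for Col3a1. DESeq2 called Col4a2 (adjusted p = 0.0187), Col16a1 (adjusted p = 0.0297) and Col4a4 (adjusted p = 0.0105), where it called 4.41% of all genes with an adjusted p. Markers of other cells differed between the durations, with no marker called. Fast skeletal muscle markers were below 0 for 7 of 7 tested, all with an unadjusted p under 0.05 (median log2 fold change -5.77), and summed to 13.9 to 75.9 CPM at 42 weeks and 10.97 to 5266 CPM at 24 weeks. Brown adipocyte markers were below 0 for 6 of 6, 5 of them with an unadjusted p under 0.05 (median -4.62). For both lists the highest sums at 24 weeks were in libraries 1 and 4. Macrophage markers summed to 14779 to 38339 CPM in Apoe-/- mice at 42 weeks and 2221 to 18457 CPM in Apoe-/- mice at 24 weeks, and 9 of 10 were above 0, 7 of them with an unadjusted p under 0.05. Endothelial markers, of cells that make basement membrane, summed to 1143 to 5053 CPM at 42 weeks and 449 to 2409 CPM at 24 weeks. Single endothelial markers were split, 5 above and 4 below 0 (median log2 fold change 0.28). Smooth muscle markers summed to 3840 to 10413 CPM at 42 weeks and 891 to 11515 CPM at 24 weeks, also with 5 above and 4 below 0 (median 0.04). Their part in the type IV values was not tested.

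**Figure D4:**
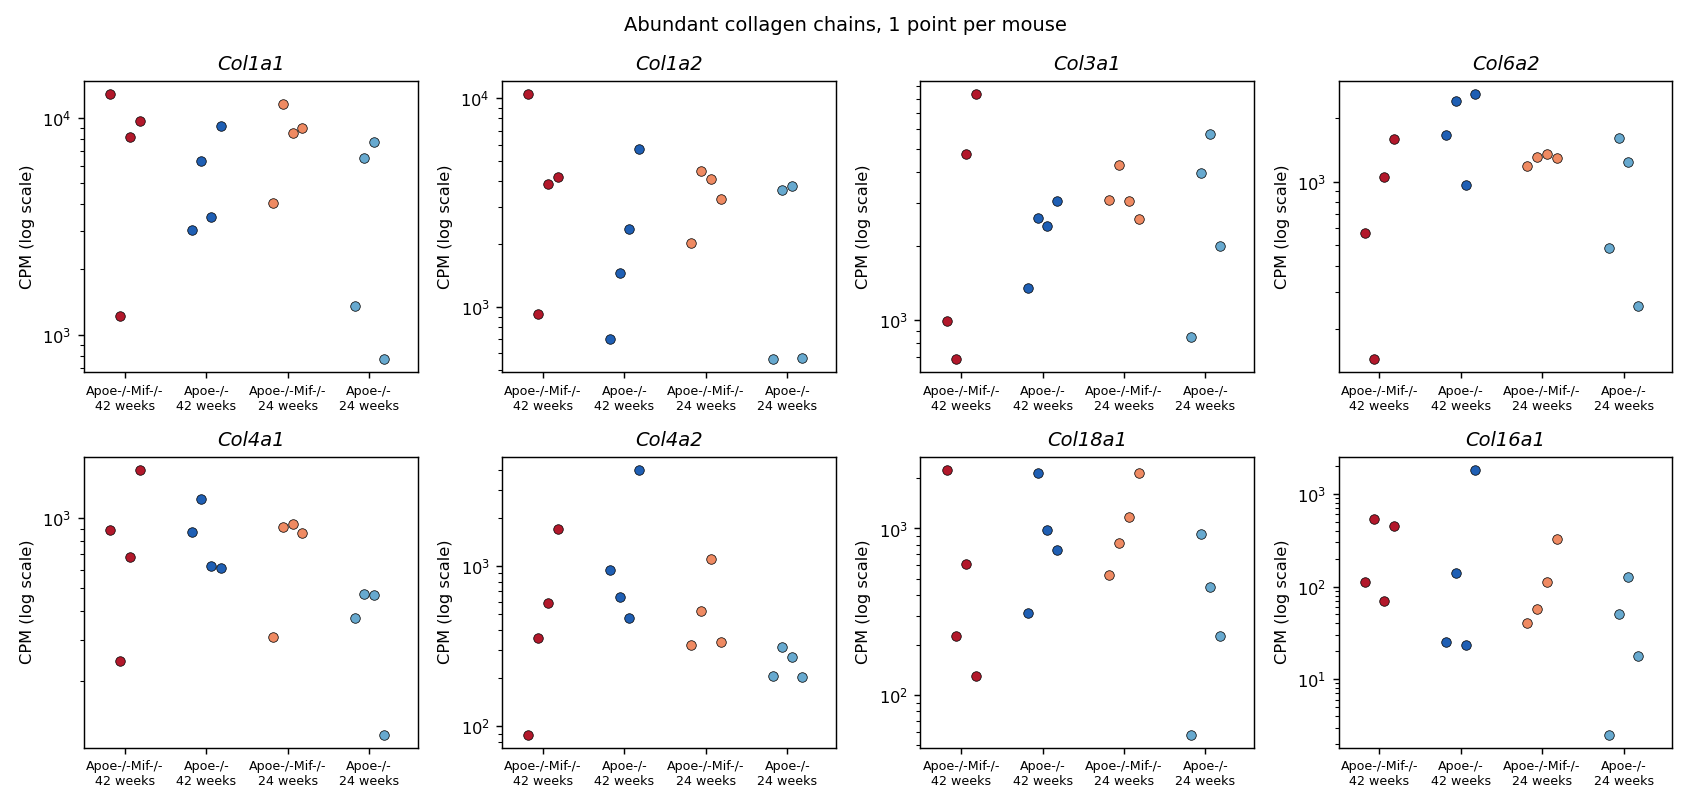
CPM on a log axis of 8 abundant collagen chains, with 1 point per mouse in the 4 groups. The 4 Apoe-/- mice at 42 weeks lie above the 4 Apoe-/- mice at 24 weeks for Col4a1 (611 to 1208 against 118 to 471 CPM) and Col4a2 (477 to 3976 against 203 to 314 CPM), while Col1a1, Col1a2 and Col3a1 overlap in every pair of groups.

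In Apoe-/-Mif-/- mice the chains were about evenly split between the durations. EdgeR called 0 of 29 chains between 42 and 24 weeks, against 13 of 10634 genes (0.122%). At an unadjusted p under 0.05 there were 2 chains, 6.9%, against 13.1% of all genes, and no chain separated the durations, against 4.38% of all genes. The fold change was above 0 for 15 chains and below 0 for 14, against 52.9% of all genes above 0. The median log2 fold change was 0.00 over the chains and 0.12 over all genes, and 0.50 and 0.54 with size factors. Of the 8 chains with the highest level per kb, Col1a1 (-0.05, SE 0.58), Col1a2 (0.48, SE 0.65), Col3a1 (0.19, SE 0.60), Col6a2 (-0.61, SE 0.65), Col6a1 (-0.40, SE 0.70), Col18a1 (-0.53, SE 0.80), Col4a2 (0.25, SE 0.75) and Col4a1 (0.17, SE 0.68) all had log2 fold changes smaller than their standard errors. All of these but Col6a2 changed sign under at least 1 other fit. The 4 beaded filament chains were all below 0, with a median of -0.80, and Col6a3 was the lowest of them (-1.12, SE 0.79, adjusted p = 0.561). White adipocyte markers were higher at 42 weeks for 9 of 9 tested, 3 of them called, and fast skeletal muscle markers had a fold change above 0 for 7 of 7, with 4 at an unadjusted p under 0.05. Without the 3 libraries rich in fat or thymus markers, the median was 0.19 over the chains and 0.05 over all genes.

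Col4a6 had 309, 111, 64.9 and 7.74 CPM in Apoe-/-Mif-/- mice at 42 weeks and 21.0, 2.26, 25.2 and 3.70 CPM at 24 weeks. All but 1 of the libraries at 42 weeks lay above those at 24 weeks (log2 fold change 3.24, SE 1.44, adjusted p = 0.338). Col23a1, a transmembrane chain, had 1.54, 4.18, 32.1 and 0.43 CPM at 42 weeks and 0, 0.82, 2.84 and 0.463 CPM at 24 weeks. Its log2 fold change of 3.11 (SE 1.81, adjusted p = 0.466) was 0.78 without library 3 at 42 weeks. DESeq2 called Col4a6 (adjusted p = 0.0302) and Col4a4 (adjusted p = 0.011), where it called 6.2% of all genes with an adjusted p.

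**Figure D5:**
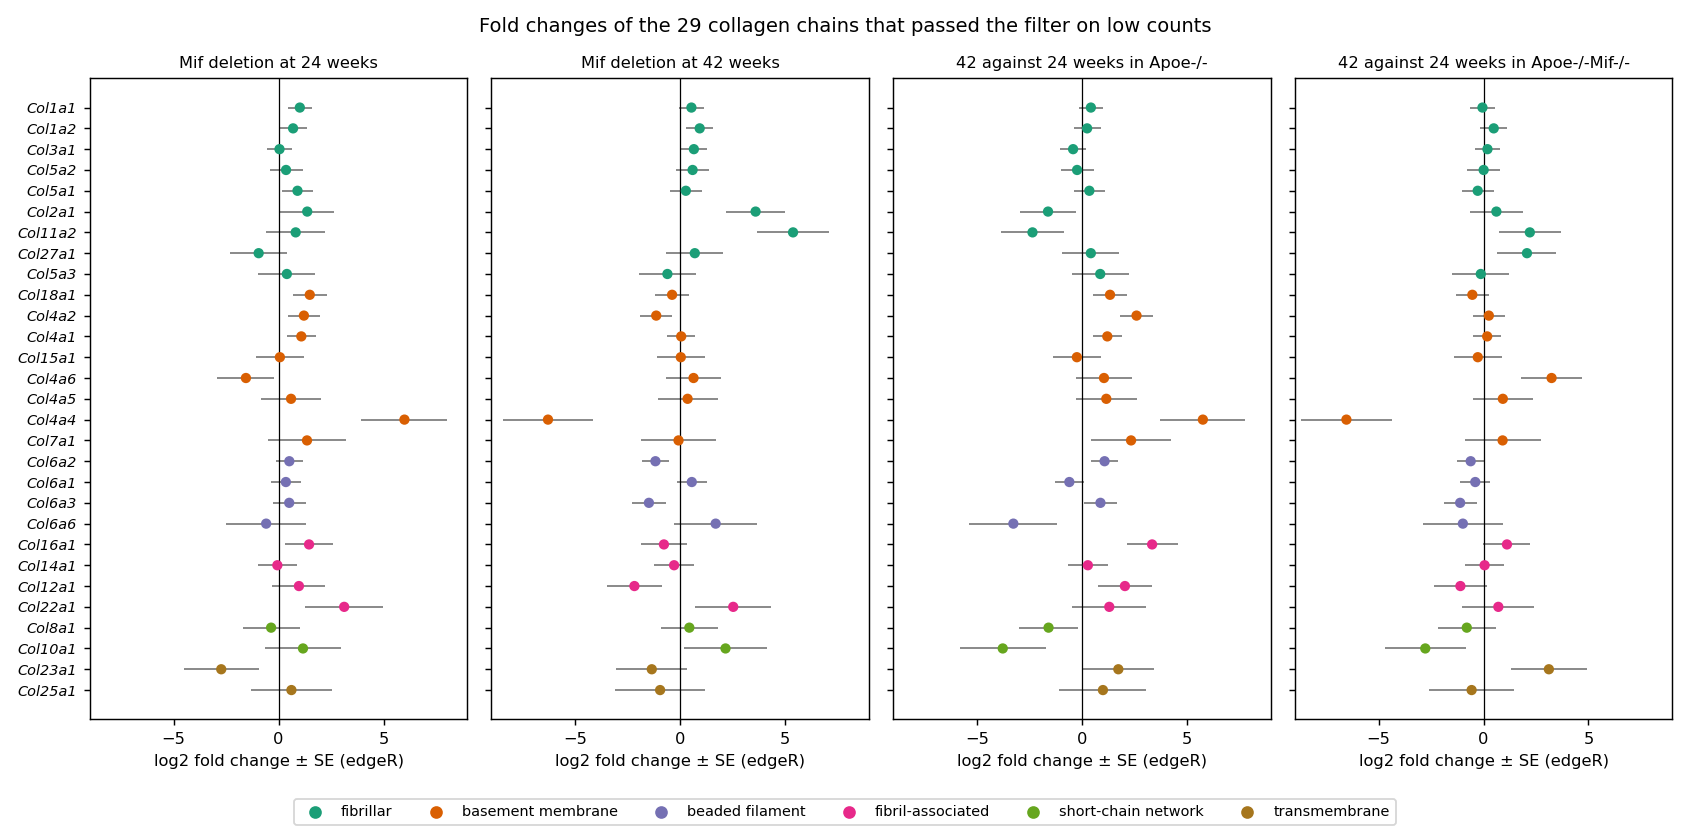
Log2 fold change from the edgeR fit for the 29 tested collagen chains, coloured by class, in the 4 comparisons. Bars show a standard error calculated from the fold change and the F statistic. Most error bars span 0. The median is 0.61 for Mif deletion at 24 weeks, 0.27 at 42 weeks, 0.87 for 42 against 24 weeks in Apoe-/- mice and 0.00 in Apoe-/-Mif-/- mice. For 42 against 24 weeks in Apoe-/- mice it is 0.05 without library 4 at 42 weeks.

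The interaction asks whether the effect of Mif deletion differed between 42 and 24 weeks. It was the 1 comparison with a called collagen, Col4a4, a type IV chain known from the glomerular basement membrane of the kidney. EdgeR called 1 of 29 chains (3.45%), against 73 of 10634 genes (0.686%); genes called downward, as Col4a4 was, made up 0.103% of the genes tested. At an unadjusted p under 0.05 there were 3 chains, 10.3%, against 14.2% of all genes. The interaction term was above 0 for 12 chains and below 0 for 17, against 54% of all genes above 0, with a median of -0.24 over the chains and 0.26 over all genes. It ran from -0.62 to 0.35 over the chains as each library was left out, and was 0.41, against -0.03 over all genes, without the 3 libraries rich in fat or thymus markers.

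Col4a4 had 1, 1, 2 and 0 counts in Apoe-/-Mif-/- mice at 42 weeks, 8, 0, 2 and 221 in Apoe-/- mice at 42 weeks, 74, 37, 1 and 315 in Apoe-/-Mif-/- mice at 24 weeks and 0, 5, 5 and 5 in Apoe-/- mice at 24 weeks. In CPM these were 0.514, 1.39, 0.479 and 0, then 16.9, 0, 0.52 and 154, then 48.5, 7.59, 0.203 and 146, and 0, 0.844, 0.544 and 1.56. Values above 2 CPM thus came from 2 libraries of Apoe-/- mice at 42 weeks and 3 of Apoe-/-Mif-/- mice at 24 weeks, and every pair of groups overlapped. The log2 interaction was -12.30 (SE 2.97, adjusted p = 0.0432), the difference of -6.30 (SE 2.15) for Mif deletion at 42 weeks and 6.00 (SE 2.05) at 24 weeks, neither of which passed alone (adjusted p = 0.176 and 0.341). The call was fragile: it was kept without Apoe-/-Mif-/- library 3 at 24 weeks (adjusted p = 0.0488) and lost when any 1 of the other 15 libraries was left out, with an adjusted p of up to 0.106. DESeq2 called it as well, among 5.74% of all genes with an adjusted p. It was lost with limma on the deposited variance-stabilised values (-4.96, adjusted p = 0.606) and without the 3 libraries rich in fat or thymus markers (-12.95, adjusted p = 0.202). Col4a3, its head-to-head neighbour on chromosome 1, did not pass the filter and had at most 20.9 CPM in a library.

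Col4a2 had the next smallest p, with an interaction of -2.35 (SE 1.08, adjusted p = 0.312), which was -1.10 without Apoe-/- library 4 at 42 weeks. Col11a2 followed at 4.56 (SE 2.11, adjusted p = 0.314). Mif deletion at 24 weeks, the durations in Apoe-/-Mif-/- mice and the interaction all set libraries named with C against those named with B, while Mif deletion at 42 weeks and the durations in Apoe-/- mice use only those named with B. Of the 73 genes called for the interaction, 10 were fat or skeletal muscle markers, all with an interaction above 0.

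The remaining chains named for their abundance varied without a called difference. Col14a1, a fibril-associated chain, had 124 to 313 CPM in Apoe-/-Mif-/- and 54.8 to 415 CPM in Apoe-/- mice at 42 weeks, and 50.9 to 412 and 8.13 to 505 CPM at 24 weeks in the same order. Col15a1, a chain of the basement membrane zone, ran from 6.96 to 245 CPM in Apoe-/-Mif-/- and 46.4 to 116 CPM in Apoe-/- mice at 42 weeks, and from 39.4 to 189 and 32.8 to 158 CPM at 24 weeks. Col8a1, a short-chain collagen of vessels, had 5.57 to 61.1 CPM in Apoe-/-Mif-/- and 12.6 to 18.1 CPM in Apoe-/- mice at 42 weeks, and 12.5 to 81.2 and 2.02 to 121 CPM at 24 weeks. Col10a1, known from hypertrophic cartilage, reached 94.8 CPM in 1 Apoe-/-Mif-/- library and 45.4 CPM in 1 Apoe-/- library at 24 weeks and stayed at or under 11.8 CPM in all libraries at 42 weeks. Col17a1, a transmembrane chain of epithelia, was at 0 in 10 of the 16 libraries and at 56.9 CPM in Apoe-/- library 1 at 42 weeks.

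Genes that build, bind, sense and degrade collagen were counted in the same fits. EdgeR called 0 genes of the 4 lists in each of the 5 comparisons. At an unadjusted p under 0.05 the 49 tested genes of the lists held 2 for Mif deletion at 24 weeks (4.08%, against 7.33% of all genes), 8 at 42 weeks (16.3% against 17.3%), 2 for duration in Apoe-/- mice (4.08% against 12.2%), 7 for duration in Apoe-/-Mif-/- mice (14.3% against 13.1%) and 6 for the interaction (12.2% against 14.2%). These shares lay near or below those of all genes. DESeq2 called Adamts14 for Mif deletion at 24 weeks (2.04% of the 49, against 2.27% of all genes), P4ha3, Colgalt1 and Pcolce2 at 42 weeks (6.12% against 9.94%) and Fmod for duration in Apoe-/-Mif-/- mice (2.04% against 6.2%). Of 32 genes for synthesis and processing 26 were tested, with 20 above 0 and 6 below 0 for Mif deletion at 24 weeks, 15 and 11 for Mif deletion at 42 weeks, 19 and 7 for duration in Apoe-/- mice, 11 and 15 for duration in Apoe-/-Mif-/- mice, and 11 and 15 for the interaction. Their medians were 0.69, 0.26, 0.35, -0.29 and -0.44 on the log2 scale. For Mif deletion at 24 weeks the smallest p was that of Adamts14, a procollagen N-propeptidase, with 59.6, 252, 46.1 and 1.39 CPM in Apoe-/-Mif-/- mice and 0, 0.169, 0.544 and 4.38 CPM in Apoe-/- mice (log2 fold change 6.11, SE 2.09, adjusted p = 0.341). Colgalt1, which adds galactose to collagen hydroxylysine, had 2.57, 6.96, 25.9 and 3.01 CPM in Apoe-/-Mif-/- mice and 164, 91.3, 79.8 and 40.5 CPM in Apoe-/- mice at 42 weeks. Its genotypes did not overlap, as held for 2 of the 26 genes (7.69%) and for 2.2% of all genes, and it did not pass (log2 fold change -3.27, SE 1.29, adjusted p = 0.206). Pcolce2, an enhancer of procollagen C-proteinase, had the smallest p for duration in Apoe-/- mice (-3.05, adjusted p = 0.357), and P4ha3, a prolyl hydroxylase subunit, for duration in Apoe-/-Mif-/- mice (-4.20, adjusted p = 0.317).

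Of 10 collagen receptor genes 8 were tested, with 6 above 0 for Mif deletion at 24 weeks, 1 at 42 weeks, 8 for duration in Apoe-/- mice, 3 for duration in Apoe-/-Mif-/- mice and 1 for the interaction. Mrc2, an endocytic receptor for collagen fragments, had 295, 337, 389 and 687 CPM in Apoe-/-Mif-/- mice at 42 weeks, against 40.0, 145, 166 and 138 CPM in Apoe-/- mice. The genotypes did not overlap at 42 weeks, as held for 1 of the 8 receptors (12.5%) and for 2.2% of all genes (log2 fold change 1.80, SE 0.85, adjusted p = 0.271), and at 24 weeks they did, with a log2 fold change of 2.00 (SE 0.85, adjusted p = 0.562). Itga11, an integrin subunit that binds fibrillar collagens, had the smallest p of the receptors for both durations and the interaction (1.77, -2.26 and -4.03, adjusted p = 0.593, 0.452 and 0.285).

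Of 12 fibril-binding matrix genes 11 were tested, with 3 above 0 for Mif deletion at 24 weeks, 9 at 42 weeks, 3 for duration in Apoe-/- mice, 7 for duration in Apoe-/-Mif-/- mice and 8 for the interaction. Dcn, the fibril-binding proteoglycan decorin, had 4323, 734, 2144 and 13375 CPM in Apoe-/-Mif-/- mice at 42 weeks, against 1714, 1023, 1553 and 2137 CPM in Apoe-/- mice. The fat-rich library 2 lay below all Apoe-/- libraries and the other 3 lay above them (log2 fold change 1.68, SE 0.67, adjusted p = 0.207). Fmod, for fibromodulin, had the smallest p for duration in Apoe-/-Mif-/- mice (3.19, adjusted p = 0.191), Bgn, for biglycan, for Mif deletion at 24 weeks (0.82, adjusted p = 0.794) and Lum, for lumican, for duration in Apoe-/- mice (-1.01, adjusted p = 0.588). Of 6 degradation genes 4 were tested, with 3, 4, 3, 3 and 2 above 0 in the 5 comparisons in that order. Mmp13, a collagenase, had 367, 107, 983 and 109 CPM in Apoe-/-Mif-/- mice at 42 weeks and 133, 31.6, 52.0 and 45.3 CPM in Apoe-/- mice (log2 fold change 2.59, SE 1.09, adjusted p = 0.225). Mmp14, for a membrane-bound collagenase, and Ctsk, for the collagen-cleaving cathepsin K, had the smallest p for Mif deletion at 24 weeks (1.04, adjusted p = 0.933) and for duration in Apoe-/- mice (1.65, adjusted p = 0.46).

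The genes outside the family whose CPM ranked most like the summed collagen CPM over the 16 libraries, among 3717 genes with a mean of at least 50 CPM, were Crip2 (Spearman's rho 0.856), Nes (0.832), Slc39a13 (0.824), S100a6 (0.818) and Mmp2 (0.818). All 16 values of such a rho share the depth and tissue make-up of the libraries, and the 3 libraries rich in fat or thymus markers were the lowest in the collagen sum.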

How the data were processed

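Poly(A) RNA of 16 brachiocephalic arteries was measured. Per the submitters' processing notes, the authors used cutadapt 1.18, Trim Galore 0.6.4, FastQC 0.11.5 and STAR 2.5.2b with build GRCm39. The counting program is not given in the sources used here. The deposited counts are whole reads per symbol, without molecular identifiers or strand, so overlapping genes on the other strand cannot be told apart. Each mouse gave its own library, so p-values cover the spread between libraries. In that spread mice, sections, amplification and depth cannot be separated. In GENCODE (GRCm38), 13 of 44 chains share exon bases with another gene, at most 6.07% of their exon length. A second deposited table holds the authors' log2 variance-stabilised values, used as an alternative.

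Counts were tested with edgeR 4.0.16 (R 4.3.3): TMM scaling, filterByExpr (minimum count 10, total 15), 1 quasi-likelihood fit over 16 libraries (12 residual degrees of freedom) and Benjamini-Hochberg adjustment over 10634 genes. A nameless row (at most 0.00257% of a library) and 2 reporter rows were left out. CPM uses TMM-scaled library sizes. Each SE was calculated as the absolute log2 fold change over the square root of the F statistic. The alternatives were DESeq2 1.42.0, limma 3.58.1, other scaling, filter and libraries. The script was tested on simulated data.

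Members and lists were chosen with earlier results of these data known. The chains named were those called and the 3 with the smallest p per comparison. Also named were the 4 most abundant fibrillar and basement membrane chains and the 2 most abundant of each other class. Of each pathway list, the gene with the smallest p per comparison was named, with some exceptions. These were the synthesis, fibril-binding and degradation lists for the interaction, and the degradation list for duration in Apoe-/-Mif-/- mice. Col4a3, Col4a5, Col5a1 and Col6a3, and the fit without the 3 libraries rich in fat or thymus markers, were added after their values were seen.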

Additional observations from a re-analysis of the deposited data

Results flagged for a closer look

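Within groups of 4 libraries, values were examined for a library far from the other 3. Chains were examined on the log2(CPM + 1) scale and shares in percent. Of 96 sets of values (20 chains and 4 shares), 7 stood out. Of these, 3 were Col17a1 sets with counts in 1 of 4 libraries, which stand out by construction. The other 93 sets gave 4, where chance alone gives about 5%. Col4a1 was low in Apoe-/-Mif-/- library 1 at 24 weeks, at 310 CPM beside 865 to 941 CPM, and in Apoe-/- library 4 at 24 weeks, at 118 CPM beside 373 to 471 CPM. Col5a2 was low in Apoe-/-Mif-/- library 4 at 24 weeks, at 268 CPM beside 637 to 744 CPM. The share of counts held by collagens was high in Apoe-/- library 4 at 42 weeks, at 2.43% beside 1.40% to 1.50%, the library with the most Col4a2 and Col16a1. Col17a1 had counts in 1 of 4 libraries in 3 groups: 15.1 CPM in Apoe-/-Mif-/- library 3 at 42 weeks, 0.655 CPM in Apoe-/-Mif-/- library 1 at 24 weeks and 0.505 CPM in Apoe-/- library 1 at 24 weeks, of which the last 2 are 1 count each.

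The edgeR interaction call for Col4a4 was fragile, as described above. It was lost with limma, without the 3 libraries rich in fat or thymus markers and without most single libraries. The fitted effect of Mif deletion on Col4a4 differed between 42 and 24 weeks, with a log2 interaction of -12.30 by edgeR (adjusted p = 0.0432). The groups it compares hold 4, 231, 427 and 15 counts in all, in the order Apoe-/-Mif-/- and Apoe-/- mice at 42 weeks and Apoe-/-Mif-/- and Apoe-/- mice at 24 weeks, and 1 library holds 221 of the 231 and another 315 of the 427.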

How the results depend on the processing

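No paired analysis was possible because the labels give each library its own mouse number and no number shared between groups. Of 52 reported fold changes, 39 kept their sign under every alternative run and 13, none of them called, did not. For 42 against 24 weeks in Apoe-/- mice, Col3a1 gave 0.10 with DESeq2, 0.10 with size factors, 0.20 with limma and -0.74 to 0.054 as each library was left out. Col1a1 and Col1a2 gave -0.39 and -0.57 without the 3 libraries rich in fat or thymus markers, Col1a2 -0.48 to 0.72 with each library left out, and Itga11 -0.010 with limma and -0.22 to 2.25 with each left out. For the same durations in Apoe-/-Mif-/- mice, Col1a1 gave 0.34 with DESeq2 and with size factors, 0.089 with limma, 0.29 without the 3 libraries and -0.36 to 0.40 with each left out. Col3a1 gave -0.013 with limma and -0.65 to 0.61, Col4a1 -0.28 to 0.58, Col4a2 -0.76 to 0.79, Col1a2 -0.19 to 0.96, Col6a1 -1.26 to 0.080 and Col18a1 -1.94 to 0.13 with each left out. For Mif deletion, Col3a1 at 24 weeks gave -0.60 without the 3 libraries and -0.27 to 0.52 with each left out, and Col6a1 at 42 weeks -0.27 to 1.01. The cause was not tested. DESeq2 called 1 chain for Mif deletion at 24 weeks (Col4a4, adjusted p = 0.0136, 2.27% of genes called), 2 at 42 weeks (Col11a2 and Col4a4, 9.94%), 3 for duration in Apoe-/- mice (4.41%), 2 for duration in Apoe-/-Mif-/- mice (6.2%) and 1 for the interaction (5.74%), where edgeR called 0, 0, 0, 0 and 1. Over all genes it called 210, 902, 391, 562 and 543, where edgeR called 5, 0, 0, 13 and 73. With size factors in edgeR these were 0, 0, 0, 22 and 64, without the filter 117, 150, 18, 419 and 426, and with limma on the deposited values 0, 0, 0, 2 and 0. For the interaction, limma and the fit without the 3 libraries rich in fat or thymus markers called 0 chains, and leaving out each library gave 0 to 1. The other 4 counts stayed at 0 as each library was left out. Size factors moved the median log2 fold change of all genes from -0.18, 0.09, -0.12, 0.12 and 0.26 to -0.12, 0.28, 0.16, 0.54 and 0.37. Depth limits the rare chains most: in the shallowest library, with 378066 counts, 28 of 44 chains had any count.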
